A study of Mus musculus with 26 samples.

Results

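Ndnf (ENSMUSG00000049001), Eya1 (ENSMUSG00000025932) and Abca4 (ENSMUSG00000028125) are 3 of the 56941 genes listed in the count matrix of a mouse left ventricle study. They were taken by gene name, and they had been picked because they differed in the same direction between knockout and control mice in males and in females. Their differences between genotypes are therefore given as a description, without a test. All 3 were among the 15357 genes with enough counts to be tested.

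The study deleted Ppp2r2a, the gene of the B55α regulatory subunit of protein phosphatase 2A, in cardiomyocytes, and measured polyA RNA of the left ventricle by RNA sequencing. The 26 mice formed 4 groups. Control males (Ctrl males, n = 6) and control females (Ctrl females, n = 6) were homozygous for the floxed allele, Ppp2r2a L/L, and had no Cre (aMHC-Cre 0/0). Knockout males (cKO males, n = 7) and knockout females (cKO females, n = 7) were also Ppp2r2a L/L and carried the transgene (aMHC-Cre Tg/0), whose α-myosin heavy chain promoter is active in cardiomyocytes. Every mouse had received saline from an implanted minipump for 2 weeks, and tissue was taken at an age of 12 to 16 weeks. The background was mixed, with floxed mice on C57BL6/N and Cre mice on FVB, although the strain label of the samples reads C57BL/6N. Because the controls carried no Cre, the loss of Ppp2r2a and the presence of the transgene cannot be told apart here, and mice with Cre alone were not analysed here. Whole ventricle was sampled, so a lower level can reflect fewer cells of a type or less RNA per cell, which cannot be told apart.

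The members have different roles. NDNF (neuron-derived neurotrophic factor) is a secreted glycoprotein with fibronectin type III domains that promotes the survival of neurons and endothelial cells. EYA1 is a transcriptional coactivator that is brought to DNA by homeodomain proteins, carries phosphatase activity in its conserved domain, and is best known from the development of the ear, kidney and muscle. ABCA4 is a membrane transporter of the ATP-binding cassette family that moves retinal-phospholipid conjugates across the disc membranes of photoreceptors. PP2A is a serine/threonine phosphatase whose B subunits select substrates and location. None of the members is a standard marker of adult cardiomyocytes.

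Of the members, Abca4 had an entry in the RefSeq promoter table (build GRCm38.p6). The window is shown because Abca4 is a photoreceptor gene measured here in ventricle, and it was searched for letters that match known motifs. It lies at chr3:122044210-122044442 on the plus strand and ends 17 bases before the RefSeq start of the gene. The capitals mark letters that match the TATA box (TATAAA). They also mark, on the minus strand, a match to the core bound by the photoreceptor factors of the OTX/CRX family (TAATCC, read here as GGATTA).

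Abca4: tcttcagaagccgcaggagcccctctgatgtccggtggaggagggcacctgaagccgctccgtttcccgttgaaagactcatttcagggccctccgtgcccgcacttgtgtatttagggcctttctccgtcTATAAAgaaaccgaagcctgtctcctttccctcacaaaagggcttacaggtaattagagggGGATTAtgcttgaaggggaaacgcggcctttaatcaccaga

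The TATA box match starts 119 bases before the RefSeq start and the OTX/CRX core 58 bases before it. Of 32851 RefSeq promoter windows searched on both strands, 11.9% held TATAAA and 5.95% held TAATCC. The E-box pattern CANNTG matched at 2 places in the Abca4 window and was present in 63.9% of all windows. Neither the GATA core AGATAA (9.57% of windows) nor the MEF3 site of muscle promoters (TCAGGTTNC, 0.986% of windows) was in these letters. A match describes the sequence and shows neither binding nor a working promoter element.

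Libraries held 14403102 to 30867399 counts, of which 13.8% to 19.2% were mitochondrially encoded. Levels are given as CPM, which is counts scaled to one common library total, after TMM scaling, which corrects library sizes for composition. Ppp2r2a averaged 37.4 ± 10.2 CPM (SD, n = 6) in Ctrl males and 14.1 ± 1.81 CPM (SD, n = 7) in cKO males. In females it averaged 40.4 ± 3.59 CPM (SD, n = 6) in Ctrl and 13.5 ± 2.07 CPM (SD, n = 7) in cKO mice. The highest cKO value of either sex was 16.2 CPM. Ctrl males 3 and 6 stood apart from the other Ctrl males in Ppp2r2a, at 24.9 and 24.1 CPM against 41.9 to 47.7 CPM, and were still above every cKO mouse. Within a group no library was a copy of another: counts of mice of the same group differed by more than sampling noise in all 72 pairs (chi-square per degree of freedom 7.41 to 36.5). Pairs from different groups were not compared in this way. The labels do not say outright that each sample is a separate animal, so p-values measure the spread between these samples.

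Ndnf was higher in the knockout ventricles of both sexes. In Ctrl males the level ran from 4.18 to 7.70 CPM with a median of 5.73, and in cKO males from 7.86 to 10.5 CPM with a median of 8.23. In Ctrl females it ran from 3.10 to 7.18 CPM with a median of 5.39, and in cKO females from 8.16 to 11.8 CPM with a median of 9.57. The lowest cKO mouse of either sex was above the highest Ctrl mouse of either sex. The gap was narrow in males, where Ctrl male 1 at 7.70 CPM stood just under cKO male 1 at 7.86 CPM, and wider in females. The log2 fold change of cKO against Ctrl was 0.55 (SE 0.14, 95% interval 0.25 to 0.85) in males and 0.89 (SE 0.15, 95% interval 0.59 to 1.19) in females. The female value exceeded the male value by 0.34 on the log2 scale (SE 0.20, 95% interval -0.08 to 0.76), a difference given without a test.

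Eya1 was also higher in the knockout ventricles, from a lower level in CPM than Ndnf. In Ctrl males the level ran from 2.04 to 3.57 CPM with a median of 2.92, and in cKO males from 3.99 to 6.21 CPM with a median of 4.21. In Ctrl females it ran from 1.16 to 2.34 CPM with a median of 1.84, and in cKO females from 2.31 to 5.05 CPM with a median of 3.71. In males the genotypes did not overlap. In females they did, by 1 mouse: cKO female 1, at 2.31 CPM, was just under Ctrl female 1, at 2.34 CPM. The log2 fold change was 0.68 (SE 0.18, 95% interval 0.31 to 1.04) in males and 1.04 (SE 0.19, 95% interval 0.64 to 1.44) in females. The female value exceeded the male value by 0.37 (SE 0.26, 95% interval -0.17 to 0.91), also without a test.

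Abca4 was lower in the knockout ventricles. On the log2 scale it varied more between mice than the other 2 members. In cKO females its SD of 0.40 was close to the 0.38 of Eya1. In Ctrl males the level ran from 2.56 to 5.86 CPM with a median of 3.38, and in cKO males from 1.18 to 2.82 CPM with a median of 1.91. In Ctrl females it ran from 2.92 to 10.5 CPM with a median of 5.65, and in cKO females from 1.75 to 4.08 CPM with a median of 3.19. The genotypes overlapped in both sexes. In males cKO mouse 1, at 2.82 CPM, was above Ctrl mouse 3, at 2.56 CPM, and in females Ctrl mice 4 and 1, at 2.92 and 3.68 CPM, lay inside the cKO range. Ctrl female 2 was the highest of all, at 10.5 CPM, well above the next Ctrl female at 6.07 CPM. The log2 fold change was -1.02 (SE 0.26, 95% interval -1.56 to -0.48) in males and -0.90 (SE 0.25, 95% interval -1.41 to -0.38) in females. Without Ctrl female 2 the female value was -0.63. The female value was above the male value by 0.12 (SE 0.36, 95% interval -0.62 to 0.86), again without a test.

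**Figure D1:**
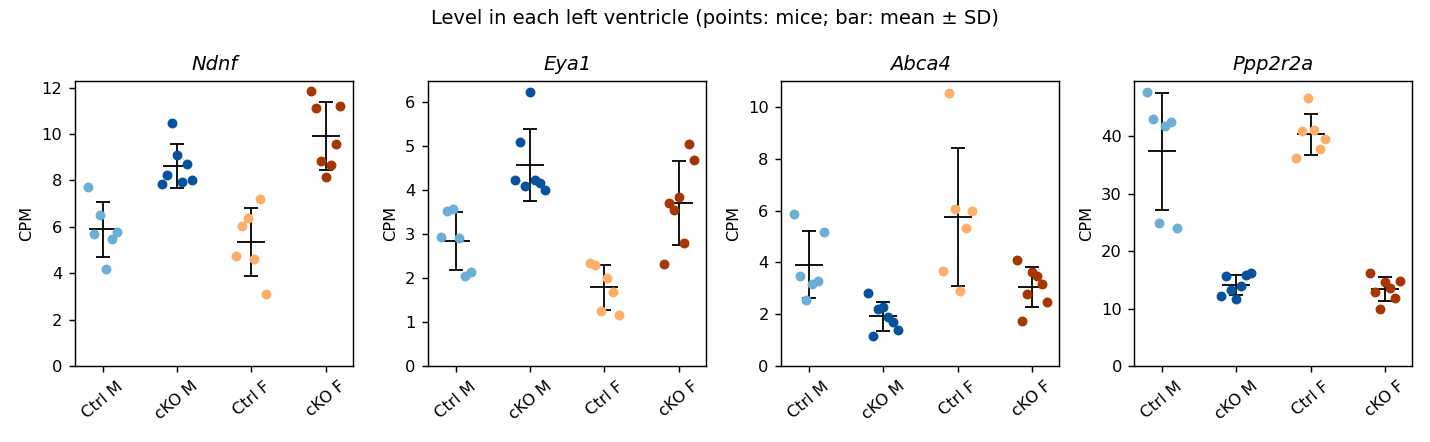
Level of each member and of Ppp2r2a in CPM (y axis) for every mouse in the 4 groups (x axis). Points are mice and bars are the mean ± SD of 6 or 7 mice. The 7 cKO males and 7 cKO females lie above every Ctrl mouse in Ndnf, while the genotypes overlap in Abca4.

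Against the background of all genes, non-overlap of genotypes was uncommon. In males 1.28% of the tested genes had cKO and Ctrl mice that did not overlap (0.41% with cKO mice higher), and Ndnf and Eya1 were among them. In females the share was 0.169% (0.117% higher) and Ndnf was among them. Over all mice of both sexes 3 genes separated the genotypes without overlap, which is 0.0195% of those tested: Ppp2r2a, lower in cKO mice, and Ndnf and the predicted gene Gm3716, both higher. At an adjusted p under 0.05 edgeR called 0.443% of genes in males, 0.0326% in females and 1.33% for the mean of the sexes. Since the members were picked on these contrasts, nothing is read from their place among those genes. The number of genes at least as far from 0 in both sexes, in the same direction, was 32 for Ndnf, 16 for Eya1 and 2 for Abca4, each count including the gene itself. For Abca4 the other gene was Ppp2r2a itself.

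Ndnf was read from 59 to 241 counts per library, Eya1 from 22 to 131 and Abca4 from 25 to 216. Over the 4 groups the coefficient of variation between mice ran from 10.8% to 27.6% for Ndnf, where counting alone would give 7.23% to 9.51%. It ran from 17.8% to 28.7% for Eya1, against 9.90% to 16.3% from counting, and from 25.8% to 46.3% for Abca4, against 9.24% to 15.3% from counting. Counting was the smaller value in every group and came closest in the Ndnf of cKO males, at 7.23% against 10.8%. Pooled within groups, the SD of log2 CPM was 0.29 for Ndnf, 0.35 for Eya1 and 0.48 for Abca4.

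Per kilobase of the longest annotated transcript, the members were expressed at like low levels in control ventricles. The 12 Ctrl mice averaged 0.556 ± 0.129 CPM per kb for Ndnf, 0.531 ± 0.181 for Eya1 and 0.666 ± 0.305 for Abca4 (SD, n = 12). These levels differed by less than their spread. Within the families, Eya1 stood under Eya3 at 8.12 ± 0.756 and Eya2 at 1.02 ± 0.267 CPM per kb and above Eya4 at 0.0710 ± 0.0224 (SD, n = 12). Abca4 stood far under Abca8a at 15.9 ± 2.16 and Abca2 at 10.2 ± 1.30 CPM per kb, and nearest to Abca12 at 0.469 ± 0.126, whose spread overlapped its own (SD, n = 12).

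The order of the group means differed between members. For Ndnf it ran cKO females, cKO males, Ctrl males, Ctrl females, with means of 9.92 ± 1.46, 8.63 ± 0.933, 5.89 ± 1.17 and 5.34 ± 1.48 CPM (SD). The neighbours within a genotype did not differ beyond their spread. For Eya1 it ran cKO males, cKO females, Ctrl males, Ctrl females, with means of 4.57 ± 0.814, 3.70 ± 0.963, 2.85 ± 0.658 and 1.79 ± 0.513 CPM (SD). For Abca4 it ran Ctrl females, Ctrl males, cKO females, cKO males, with means of 5.75 ± 2.67, 3.92 ± 1.29, 3.05 ± 0.787 and 1.93 ± 0.563 CPM (SD). In both genes each group overlapped its neighbour in the order.

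The comparison of females with males was not used to pick the members and could be tested. Averaged over the genotypes, Eya1 was lower in females and Abca4 was higher in females, while Ndnf did not pass the test. At an adjusted p under 0.05, edgeR called 7.71% of all tested genes for this contrast, 3.69% as lower and 4.02% as higher in females, so a call there is not rare. The log2 difference of females from males was -0.49 for Eya1 (SE 0.13, 95% interval -0.76 to -0.22, edgeR adjusted p = 0.0221). It was 0.61 for Abca4 (SE 0.18, 95% interval 0.24 to 0.99, edgeR adjusted p = 0.0363). For Ndnf it was 0.03 (SE 0.10, 95% interval -0.18 to 0.24, edgeR adjusted p = 0.898). An exact permutation of sex within each genotype, a two-sided test added after the data had been seen, gave p = 0.0018 for Eya1, 0.00643 for Abca4 and 0.914 for Ndnf over 3171168 arrangements.

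Some cell type markers differed by sex beside Eya1 and Abca4. All 4 tested adipocyte markers were higher in females (median log2 difference 1.22), and 1 of them, the adipokine gene Cfd, was called (1.57, SE 0.38, edgeR adjusted p = 0.0116). The 6 adipocyte markers together summed to 0.933 to 4.03 CPM in Ctrl males, 0.261 to 6.89 in cKO males, 1.94 to 7.70 in Ctrl females and 1.51 to 11.4 in cKO females. All 8 macrophage markers were lower in females (median -0.19) and 0 were called. They summed to 217 to 368 CPM in Ctrl males, 242 to 379 in cKO males, 201 to 284 in Ctrl females and 202 to 311 in cKO females. Of the cardiomyocyte markers 2 of 10 were called higher in females, Tnni3 and Myl2. Of the fibroblast markers 1 of 8 was called higher and 2 lower, and of the mural markers 1 of 8 higher. Over all tested genes 7.71% were called in this contrast, so 1 call in a short list is near that share. No tested marker of the atrial, endothelial, lymphocyte, mesothelial or glial lists was called. No marker of these lists was at 0 in all mice, and their part in the sex differences of Eya1 and Abca4 was not tested.

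The Eya1 call held in each of 26 fits that left out 1 mouse, with adjusted p from 0.013 to 0.0452. The Abca4 call was less firm: it was lost in 14 of the 26 such fits, with adjusted p up to 0.0676, and kept in 12. The mice whose removal ended it were Ctrl males 2 to 5, cKO males 2, 5, 6 and 7, Ctrl females 2, 3 and 6, and cKO females 1, 4 and 5. The difference itself stayed between 0.48 (without Ctrl female 2) and 0.69 (without Ctrl male 1).

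Within a single genotype no member passed the test for sex. In Ctrl mice the log2 difference of females from males was -0.67 for Eya1 (SE 0.20, edgeR adjusted p = 0.124) and 0.55 for Abca4 (SE 0.25, edgeR adjusted p = 0.376), where 0.638% of genes were called. In cKO mice it was -0.30 for Eya1 (SE 0.17, edgeR adjusted p = 0.378) and 0.68 for Abca4 (SE 0.26, edgeR adjusted p = 0.162), where 2.7% of genes were called. For Ndnf it was -0.14 in Ctrl mice and 0.20 in cKO mice, and edgeR gave adjusted p of 0.789 and 0.479. Thus the sex difference had the same sign in both genotypes for Eya1 and for Abca4, and opposite signs for Ndnf.

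**Figure D2:**
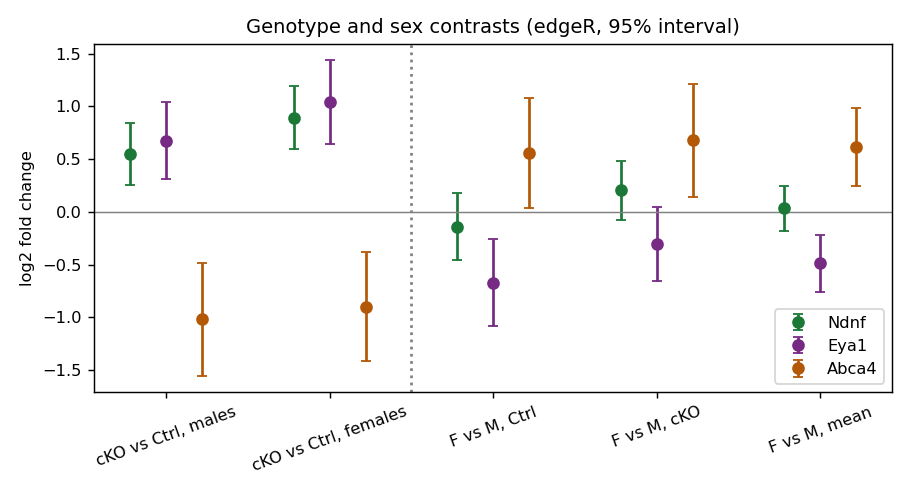
Log2 fold change of each member (y axis) for cKO against Ctrl in males and females and for females against males in Ctrl mice, cKO mice and their mean (x axis); bars are 95% intervals from edgeR over 26 mice. Left of the dotted line stand the contrasts the members were picked on, whose intervals do not allow for the picking. For the mean of the genotypes, the Eya1 interval lies below 0, the Abca4 interval above 0 and the Ndnf interval across 0.

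Among the relatives of Eya1 and Abca4, 1 gene per family was called for the mean sex contrast, where 7.71% of all genes were called, so a call among 8 or 10 genes is near that share. Eya2 was lower in females by a log2 difference of -0.60 (SE 0.13, edgeR adjusted p = 0.0035), as Eya1 was, and was the 1 gene called among the other 8 tested genes of the EYA-SIX-DACH network. Abca8b was lower in females by -0.36 (SE 0.07, edgeR adjusted p = 0.00229), opposite to Abca4, and was the 1 gene called among 10 other ABCA transporters. Both calls were kept in all 26 fits that left out 1 mouse, and both genes were chosen after their values were seen.

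How far the members followed Ppp2r2a from mouse to mouse was read within groups, because the genotypes form separate clusters in Ppp2r2a and a correlation over raw values would repeat the genotype difference. Over the deviations of 26 mice from their group means, no correlation of a member with Ppp2r2a passed the test. Pearson's r was 0.0541 for Ndnf (permutation p = 0.808; Spearman's rho 0.0954, permutation p = 0.644). It was -0.181 for Eya1 (permutation p = 0.405; rho -0.261, permutation p = 0.196). It was 0.0202 for Abca4 (permutation p = 0.925; rho -0.0263, permutation p = 0.906). Adjusted over the 15 relations of this family, the p of r was 0.925 for each, and that of rho 0.926, 0.926 and 0.971. Without Ctrl males 3 and 6, the mice farthest out in Ppp2r2a, r was 0.149, -0.275 and 0.0149.

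The Ppp2r2a of Ctrl males 3 and 6 was the lowest of the controls, and their Ndnf levels of 6.53 and 5.77 CPM lay inside the range of the other Ctrl males. In Eya1 mouse 3 was the highest Ctrl male at 3.57 CPM, whereas mouse 6 was among the lowest at 2.13 CPM. In Abca4 mouse 3 was the lowest Ctrl male at 2.56 CPM, whereas mouse 6 was the second highest at 5.17 CPM. Leaving both out gave male log2 fold changes of 0.58 for Ndnf, 0.68 for Eya1 and -1.03 for Abca4, close to the values over all mice.

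Within single groups the 12 correlations with Ppp2r2a ran from -0.870 to 0.417, with 6 above 0 and 6 below. The lowest was that of Abca4 in cKO males, where the mice with less residual Ppp2r2a had more Abca4. There r was -0.870 (exact permutation p = 0.0135, adjusted p = 0.202) and rho -0.857 (exact permutation p = 0.0238, adjusted p = 0.357), over 7 mice. It was -0.892 without cKO males 4 and 7, the mice farthest from the median of Ppp2r2a. In cKO females the same pair gave r = 0.351 (exact permutation p = 0.436, adjusted p = 0.925) over 7 mice. None of the 12 passed after adjustment over the 15 relations, and the smallest exact p that 6 and 7 mice allow is 0.00278 and 0.000397. In Ctrl males r of Abca4 moved from 0.156 to 0.998 and that of Ndnf from -0.0767 to 0.915 once mice 3 and 6 were left out, which leaves 4 mice and no test.

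**Figure D3:**
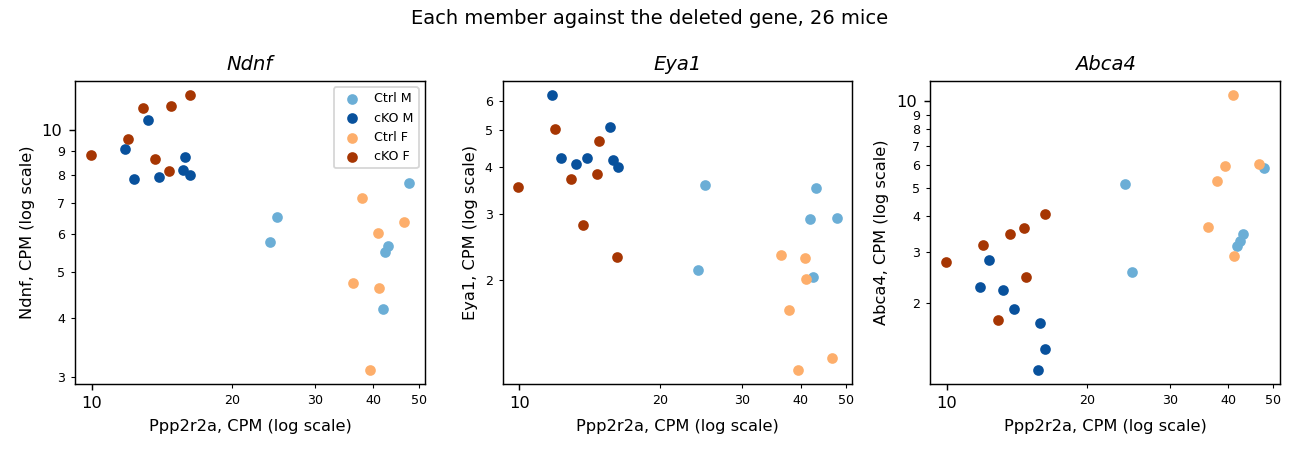
Level of each member (y axis, CPM, log scale) against Ppp2r2a (x axis, CPM, log scale) in each of the 26 mice, by group. The genotypes form separate clusters along the x axis, with Ctrl males 3 and 6 at 24.9 and 24.1 CPM between them, and the points show no common slope within the clusters.

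No correlation between members within groups passed the test either. Over 26 deviations r was 0.135 for Ndnf with Eya1 (permutation p = 0.589; rho 0.0338, permutation p = 0.883). It was 0.194 for Ndnf with Abca4 (permutation p = 0.458; rho 0.221, permutation p = 0.321) and -0.239 for Eya1 with Abca4 (permutation p = 0.295; rho -0.229, permutation p = 0.294). Adjusted over 15 relations, the p of r was 0.84 for each pair and that of rho 0.963. Without the 2 mice farthest from the median of the first gene named, r was -0.0574, 0.314 and -0.154. In single groups the 12 correlations lay between -0.440 and 0.457, and 0 had an unadjusted permutation p under 0.05.

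The levels of other measures moved with genotype beside the members. The summed level of 10 cardiomyocyte markers ran from 82261 to 93225 CPM in Ctrl males and from 72558 to 86516 CPM in cKO males. In females it ran from 82656 to 97989 CPM in Ctrl mice and from 79291 to 91825 CPM in cKO mice. All 10 were read in every group, and all 10 had a negative mean genotype difference, with a median of -0.10. For the mean of the sexes 2 of the 10 fell, where 1.33% of all genes were called: Tnni3, cardiac troponin I (log2 fold change -0.17, edgeR adjusted p = 0.0168), and Myl3, an essential myosin light chain (-0.17, edgeR adjusted p = 0.00965). The 5 atrial markers summed to medians of 200 CPM in Ctrl males, 455 in cKO males, 273 in Ctrl females and 428 in cKO females. Nearly all of that was Nppa, a stress-responsive natriuretic peptide, which did not pass the test (mean of the sexes 0.95, edgeR adjusted p = 0.0812), while the defining atrial genes Myl7 and Sln had at most 3 counts in any library. All 8 fibroblast markers had a positive mean genotype difference, and 0 were called. Their part in the results for Ndnf, Eya1 and Abca4 was not tested across genotypes.

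Within groups, the members were set against the mean log2 level of the tested genes of each of 10 marker lists, the total count and the mitochondrial share. Tested were 2 of 5 atrial, 2 of 6 lymphocyte, 2 of 8 mesothelial, 4 of 6 adipocyte and 5 of 6 glial markers, and all markers of the other lists. The correlations of the 36 relations ran from -0.407 to 0.496, 5 had an unadjusted permutation p under 0.05 and 0 passed after adjustment (smallest adjusted p = 0.353). The highest was that of Ndnf with the cardiomyocyte markers, at r = 0.496 (permutation p = 0.0263, adjusted p = 0.353; rho 0.299, permutation p = 0.171) and 0.329 without Ctrl female 6 and cKO male 2. The lowest was that of Ndnf with the fibroblast markers, at r = -0.407 (permutation p = 0.0702, adjusted p = 0.421; rho -0.309, permutation p = 0.16) and -0.474 without Ctrl males 2 and 6.

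**Figure D4:**
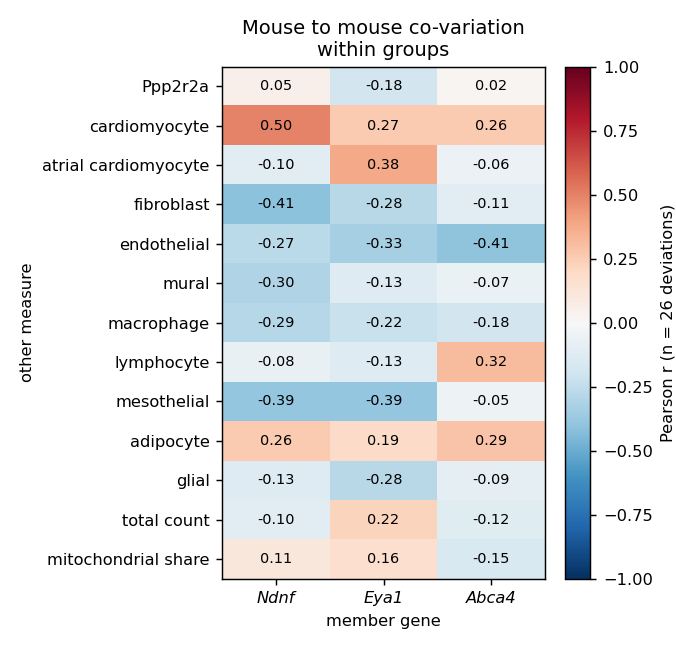
Pearson's r over 26 deviations from group means between each member (columns) and other measures (rows). The rows are Ppp2r2a, the tested genes of 10 marker lists, the total count and the mitochondrial share. The colour scale runs from -1 to 1. Ndnf with the cardiomyocyte markers stands highest, at 0.50, and the Ppp2r2a row holds values between -0.18 and 0.05.

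The genes whose pattern over the 26 mice was most like that of a member are given by Pearson's r of log2 CPM, with no p, since genotype and the library are shared by all points. For Ndnf these were Gm3716 (0.762), the histone methyltransferase gene Kmt2d (0.753), the mitochondrial iron carrier gene Slc25a37 (0.728), the splicing factor gene Srrm2 (0.728) and Zmiz1 (0.708). For Eya1 they were the synaptic scaffold gene Shank1 (0.819), Ube2ql1 (0.770), Gm3716 (0.752), the zinc transporter gene Slc39a6 (0.746) and the phospholipase gene Plcg2 (0.707). Gm3716, of unknown function, was thus near both: it had at most 3 counts in any Ctrl library, 14 to 26 in cKO males and 4 to 29 in cKO females. Shank1 averaged 3.75 ± 1.05 CPM in Ctrl males and 5.36 ± 0.912 CPM in cKO males, and 2.83 ± 0.718 and 4.14 ± 0.312 CPM in females (SD), so it ordered the groups as Eya1 did.

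For Abca4 the most alike were the dehydrogenase gene Dhrs11 (0.756), the nuclear envelope gene Sun2 (0.738), Idh2, a mitochondrial isocitrate dehydrogenase (0.721), Macrod1 (0.715) and Hadha, a subunit of the mitochondrial trifunctional protein of fatty acid oxidation (0.708). Each of these was lower in cKO mice by much less than Abca4: their log2 fold changes lay between -0.22 and -0.12 in males, with Hadha at -0.22 and Idh2 at -0.12. Ppp2r2a itself stood at place 54 for Abca4 (r = 0.623) and at place 15356, the last, for Ndnf (r = -0.764).

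Once the group means were removed, other genes came first. For Ndnf they were the RNA-binding protein gene Rbms2 (0.832), the cytokine gene Il15 (0.724), the myosin light chain gene Myl1 (0.686), Mdn1 (0.674) and Ppp1r13l (0.671). For Eya1 they were Gatad1 (0.738), Tusc2 (0.719), Rabgef1 (0.711), Kyat3 (0.688) and Trdn, the gene of triadin of the calcium release complex (0.675). For Abca4 they were Spen (0.673), Pip4k2b (0.672), Spacdr (0.669), Phactr1 (0.663) and Hcn4, a pacemaker channel gene (0.660). No gene stood among the first 5 by both measures for the same member.

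None of the relatives of Eya1 or Abca4 passed the test for genotype. Of 11 genes of the EYA-SIX-DACH network, in which EYA1 works, 8 were tested and edgeR called 0 in males, in females and for the mean of the sexes. Six3, Six6 and Dach2 had at most 2 counts in any library. At an unadjusted p under 0.05, 13.2% of all tested genes passed in males, 5.15% in females and 14.1% for the mean of the sexes. Of the 8 tested genes, 0 passed in males, 1 in females and 0 for the mean. The gene in females was Six2 (0.63, SE 0.30), chosen after its value was seen. It was read from at most 18 counts per library and stood at -0.25 (SE 0.30) in males. DESeq2 and limma voom called 0 of the 8 as well. The median log2 fold change for the mean of the sexes was 0.01, against 0.00 over all genes. Eya4 had a mean difference of 0.29 (SE 0.25), close to its error and read from at most 22 counts per library. Eya3, the most abundant family member, was at 43.3 ± 3.98 CPM in Ctrl males and 40.7 ± 3.10 CPM in cKO males (SD).

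Of 14 genes of fast skeletal muscle that the EYA-SIX complex is known to activate in that tissue, 6 were tested. Of these, 1 was called in males (0.443% of all genes), 0 in females (2 at an unadjusted p under 0.05, both lower, where 5.15% of all genes passed) and 1 for the mean of the sexes (1.33% of all genes). Eno3, the muscle enolase of glycolysis, fell from 1856 ± 91.5 CPM (SD, n = 6) in Ctrl males to 1549 ± 77.3 CPM (SD, n = 7) in cKO males, which is -0.26 on the log2 scale (SE 0.05, edgeR adjusted p = 0.0272). Its direction was opposite to that of Eya1. In females the Eno3 value was -0.12 (SE 0.05, edgeR adjusted p = 0.941), and for the mean of the sexes it was -0.19 (SE 0.04, edgeR adjusted p = 0.0106). The male call was lost without Ctrl males 3 and 6 (edgeR adjusted p = 0.0579), and in 4 of the 26 fits that left out 1 mouse: Ctrl male 3 or 5, or cKO male 5 or 6, with adjusted p up to 0.0872. The call for the mean of the sexes was kept in all 26. Myl1, a light chain of fast fibres, had a mean difference of 0.22 (SE 0.12, edgeR adjusted p = 0.439). The list's median for the mean of the sexes was -0.02. Among its tested genes, Tnni2, Mylpf and Atp2a1 were read from at most 30, 19 and 19 counts in any library.

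Of 15 other ABCA transporters, 10 were tested and edgeR, DESeq2 and limma voom called 0 in each genotype contrast. At an unadjusted p under 0.05 edgeR had 0 in males, 0 in females and 1 for the mean of the sexes, where 13.2%, 5.15% and 14.1% of all genes passed. Mean differences ran from -0.12 for Abca12 (SE 0.12), a lipid transporter of skin, to 0.17 for Abca8b (SE 0.07, edgeR adjusted p = 0.247). Their median was 0.06. Abca4 was at -0.96 (SE 0.18), but it was picked for its genotype difference, so its distance from the family is a description only.

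**Figure D5:**
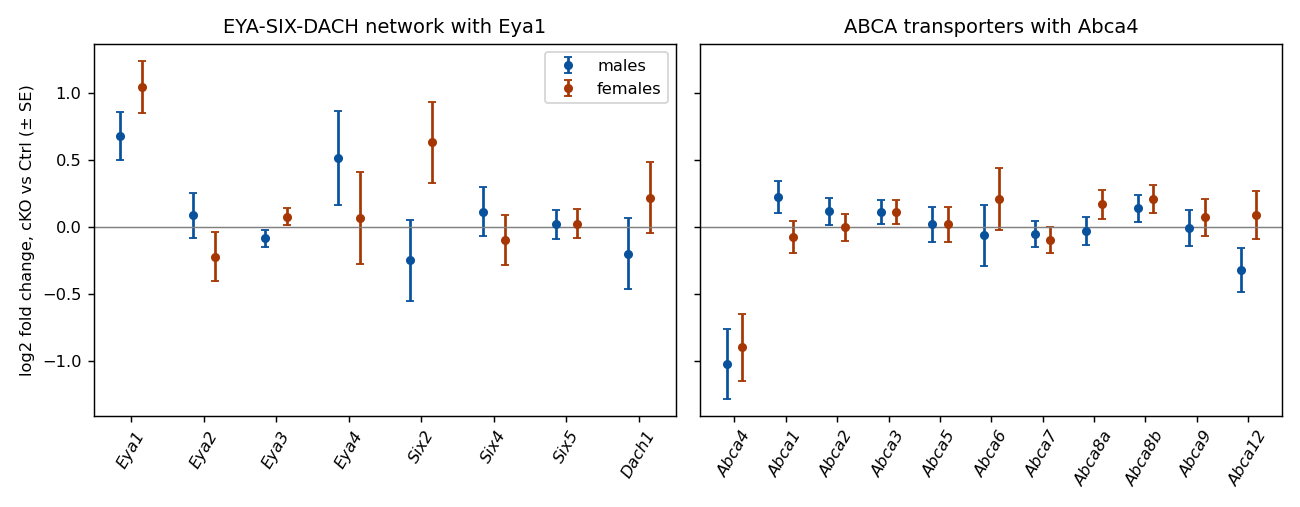
Log2 fold change of cKO against Ctrl ± SE (y axis) in males and females for Eya1 with 7 tested EYA-SIX-DACH genes (left) and for Abca4 with 10 tested ABCA transporters (right). Abca4 stands at -1.02 and -0.90 while the other ABCA transporters lie between -0.32 and 0.22. Eya1 and Abca4 were picked for their genotype difference, so their distance from the other genes is a description only.

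ABCA4 handles retinoid substrates in the eye. The retinoid genes, a list that holds retinoid receptor genes beside those of retinoid supply and clearance, were not called by edgeR. Of 36 genes, 20 were tested and the count was 0 in males, in females and for the mean of the sexes. At an unadjusted p under 0.05 edgeR had 3 in males, all lower, 1 in females and 3 for the mean, near the 13.2%, 5.15% and 14.1% of all genes. The partners of ABCA4 in the photoreceptor visual cycle were hardly read: Rpe65, Rlbp1, Rdh8 and Rbp3 had at most 1 count in any library. The 2 largest mean differences were those of Retsat, retinol saturase, at -0.20 (SE 0.08, edgeR adjusted p = 0.249) and of the retinal reductase gene Rdh11 at 0.18 (SE 0.07, edgeR adjusted p = 0.216). DESeq2 called 1 gene in males, the retinoid X receptor gene Rxrg (-0.22, DESeq2 adjusted p = 0.0451). For Rxrg edgeR gave an adjusted p of 0.117. Among all genes DESeq2 called 399 in males, so 1 call among 20 genes is not unusual.

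Other secreted factors with neurotrophic or angiogenic action, the class NDNF belongs to, were not called either. Of 24 genes 19 were tested, and edgeR called 0 in each genotype contrast. The 2 largest mean differences were those of Bdnf at -0.22 (SE 0.12, edgeR adjusted p = 0.421) and Vegfd at 0.22 (SE 0.14, edgeR adjusted p = 0.522). At an unadjusted p under 0.05 edgeR had 3 in males, 0 in females and 2 for the mean, where 13.2%, 5.15% and 14.1% of all genes passed. DESeq2 called Nenf, a secreted heme-binding factor, in males (-0.17, DESeq2 adjusted p = 0.0371). It called 399 genes in males among all genes, so 1 call among 19 is not unusual. Ndnf stood at 0.55 in males and 0.89 in females. It was picked for its genotype difference, so its distance from these genes is a description only.

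The kinases and effectors through which NDNF has been reported to act, among them AKT, FAK and endothelial nitric oxide synthase, were all measured. Of 10 genes 10 were tested and edgeR called 0 in each genotype contrast. At an unadjusted p under 0.05 edgeR had 2 in males, 1 in females and 2 for the mean, where 13.2%, 5.15% and 14.1% of all genes passed. The 2 largest mean differences were 0.14 for the growth factor receptor gene Fgfr1 (SE 0.05, edgeR adjusted p = 0.163) and -0.12 for Akt2 (SE 0.04, edgeR adjusted p = 0.111). DESeq2 called Akt2 for the mean (-0.12, DESeq2 adjusted p = 0.038). It called 549 genes for the mean among all genes, so 1 call among 10 is not unusual. RNA levels say nothing of the phosphorylation of these proteins.

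The members lie on different chromosomes: Ndnf on chromosome 6 (plus strand), Eya1 on chromosome 1 (minus strand) and Abca4 on chromosome 3 (plus strand) in the GENCODE annotation used for neighbours. For each, the 5 nearest tested genes on either side were taken, and of these 10 genes per member 0 were called by edgeR in a genotype contrast. Their mean differences ran from -0.20 to 0.36 around Ndnf, -0.15 to 0.21 around Eya1 and -0.14 to 0.34 around Abca4. Arhgap29, the nearest neighbour of Abca4, was at 0.01, and Tnip3, the nearest of Ndnf, at -0.20. No annotated gene overlapped Ndnf. A miRNA gene and an unclassified gene overlap Eya1, and 2 pseudogenes on the opposite strand overlap Abca4; none of these was among the tested genes.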

How the data were processed

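Left ventricle polyA RNA of 26 mice in 4 groups of 6 or 7 was measured. The deposited matrix holds the authors' whole-number read counts per gene, and its values were not normalized. The submitters' processing notes name FastQC 0.74, cutadapt 4.6, STAR 2.7.11a, HTSeq and the build GRCm39; the gene annotation and the strand setting of the counting are not given in the sources used here. Libraries were stranded, per the labels' protocols. All columns of the matrix were mapped to samples by name.

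Counts were filtered with filterByExpr (minimum count 10), scaled by TMM and tested in edgeR 4.0.16 (R 4.3.3) with the quasi-likelihood F test, in 1 model with a mean per group over all 26 mice and Benjamini-Hochberg adjustment over 15357 genes. Depths ran from 14403102 to 30867399 counts. Log2 CPM used a prior count of 2. Correlations used exact permutations of pairings within groups, or 100000 permutations within groups for deviations, two-sided. The edgeR step was checked on simulated counts. Alternatives were DESeq2 1.42.0, limma 3.58.1 (voom), other scaling, filters and prior count, a replicate block and left-out mice.

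The members and gene lists were chosen with earlier results of these data known. Named genes are Ppp2r2a, the members, list genes called in a genotype contrast or otherwise the 2 with the largest mean genotype difference, and the 5 genes most alike by either measure; exceptions are stated. Positions, neighbours and transcript lengths come from GENCODE M21 on GRCm38, which matched 98.3% of the tested genes, not from the build of the counts, so levels per kb are approximate. One gene of the EYA-SIX-DACH list is counted there but not reported here.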

Additional observations from a re-analysis of the deposited data

How the results depend on the processing

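The log2 fold changes of the 3 members between genotypes kept their sign in every setting tried. Over 33 settings they ran from 0.59 to 0.75 (Eya1, males), 0.95 to 1.13 (Eya1, females), -1.14 to -0.86 (Abca4, males) and -1.04 to -0.63 (Abca4, females), and over 34 settings from 0.47 to 0.64 (Ndnf, males) and 0.78 to 0.99 (Ndnf, females). Eya1 and Abca4 have no value where genes needed a mean of at least 5 CPM. The members were picked for their direction in these same mice, so the kept sign is no separate support. The fit of only the compared groups was not run for means, which use all 4 groups, and correlations in single groups were not recomputed without single mice.

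The Abca4 difference between the sexes missed the threshold with limma voom (0.60, adjusted p = 0.0585), with no filter (0.61, adjusted p = 0.0844), with the replicate block (0.63, adjusted p = 0.0512) and without Ctrl males 3 and 6 (0.61, adjusted p = 0.0685). It was kept with DESeq2 and with DESeq2 size factors. Without single mice it ran from 0.48 to 0.69, and that of Ndnf from -0.0206 to 0.0876, changing sign. The Eya1 call held in all of these.

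Counts of called genes moved more. In males the count of 68 became 399 with DESeq2, 31 with no filter, 164 with a mean of at least 5 CPM and 7 without Ctrl males 3 and 6. In females the count of 5 became 9 with DESeq2, 3 with voom, 2 with a mean of at least 5 CPM, 3 with the replicate block and 1 with only the compared groups. For the mean of the sexes 205 became 549 with DESeq2 and 113 with no filter. Between the sexes, 98 in Ctrl mice became 253 with DESeq2, 61 with only the compared groups and 40 without Ctrl males 3 and 6. In cKO mice 414 became 707 with DESeq2 and 244 with no filter. For the mean of the genotypes 1184 became 780 with no filter and 699 without Ctrl males 3 and 6. The cause was not tested, beyond the fewer samples or genes that a setting uses. Without single mice the counts ran from 4 (Ctrl male 5) to 122 (Ctrl female 6) in males, 3 to 7 in females, 96 to 349 for their mean, 54 to 125 between the sexes in Ctrl mice, 163 to 548 in cKO mice and 853 to 1244 for the mean of the genotypes.

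Correlations of deviations changed sign without single mice for Ppp2r2a with Abca4 (-0.120 to 0.158), Ppp2r2a with Ndnf (-0.0745 to 0.141) and Eya1 with Ndnf (-0.112 to 0.253). Whether the replicate numbers of the titles pair the mice was not tested. Between genotypes in males the mean correlation of same-numbered mice was -0.0259, against 0.00430 for other pairs. In females it was 0.118, against -0.0186 for other pairs. In males 1 of 6 mice and in females 2 of 6 correlated best with their own number. With the replicate block 1 more list gene was called, the neurotrophic factor gene Nrtn for the mean of the sexes (0.24, adjusted p = 0.0374). Members read from 22 to 241 counts per library limit what a single mouse can show.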
